A study of Mus musculus with 8 samples.

Results

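The circadian clock genes Per1, Per2, Per3, Cry1, Cry2, Clock, Nr1d1, Nr1d2, Dbp and Tef were followed in cultured mouse vascular smooth muscle cells, which give arteries their tone. They were taken by symbol, and all 10 were found among the 27249 genes of the deposited table, with reads in each of the 8 libraries. Messenger RNA of primary cells was sequenced in 4 groups of 2 libraries. The first group overexpressed THOC5, which belongs to the THO complex of mRNA export, and was kept in osteogenic medium. In the second group, cells overexpressing green fluorescent protein (GFP), which the labels give the genotype WT, were kept in the same medium. The other two groups were THOC5 and GFP cells in growth medium. The series design names the osteogenic treatment as inorganic phosphate (Pi) for 6 days, a way to push these cells towards a bone-like, calcifying state, and names the effect of THOC5 on expression during that transition as the question. The vector, the strain and age of the mice, the hour at which cells were collected and any synchronization of their clocks were not stated in the labels or the design text. Whether replicates came from separate cultures is not in the labels, so p-values measure the spread between these libraries, which may be technical.

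The mammalian clock is a loop of transcription and translation that runs in most cell types, smooth muscle of the artery included, where it contributes to the daily rhythm of contractility. CLOCK pairs with ARNTL (BMAL1) and switches on genes that carry E-boxes in their control regions, among them the Per and Cry genes, Nr1d1, Nr1d2, Dbp and Tef. PER and CRY proteins accumulate and inhibit that pair, while NR1D1 and NR1D2 (REV-ERB alpha and beta) are nuclear receptors that repress Arntl and other genes through ROR elements, and DBP and TEF activate genes through D-boxes. In a dish the clocks of single cells run on but drift apart unless a stimulus such as a serum or medium change sets them together. A single time of collection therefore gives a level and not a rhythm.

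Promoters were inspected because these genes are known to share control elements. The RefSeq promoter table (GRCm38.p6), which covers the 250 bases before and the 50 bases after each annotated start, held 13 promoters for 9 of the 10 genes, and Per2 was not among them. The promoters shown belong to the genes whose level passed the test between osteogenic and growth medium in GFP cells, as described further on. They lie at chr10:85185005-85185304 for Cry1, chr11:98775328-98775627 for Nr1d1, chr14:18239057-18239356 for Nr1d2 and chr4:151044616-151044915 for Per3, all on the minus strand, and at chr7:45704997-45705296 on the plus strand for Dbp. Each is given 5′ to 3′ on the gene's strand, and capitals mark matches to the motifs listed after them.
Cry1: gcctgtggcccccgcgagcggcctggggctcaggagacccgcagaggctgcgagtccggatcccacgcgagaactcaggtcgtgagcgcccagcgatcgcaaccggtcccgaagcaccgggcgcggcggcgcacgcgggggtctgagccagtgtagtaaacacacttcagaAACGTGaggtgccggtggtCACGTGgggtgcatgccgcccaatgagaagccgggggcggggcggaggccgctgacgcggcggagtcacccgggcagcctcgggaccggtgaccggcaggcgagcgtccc
Nr1d1: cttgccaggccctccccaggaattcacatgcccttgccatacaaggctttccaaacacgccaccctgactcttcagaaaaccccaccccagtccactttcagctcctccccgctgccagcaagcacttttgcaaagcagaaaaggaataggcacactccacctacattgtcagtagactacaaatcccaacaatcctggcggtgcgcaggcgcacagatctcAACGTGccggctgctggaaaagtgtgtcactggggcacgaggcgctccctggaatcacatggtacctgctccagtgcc
Nr1d2: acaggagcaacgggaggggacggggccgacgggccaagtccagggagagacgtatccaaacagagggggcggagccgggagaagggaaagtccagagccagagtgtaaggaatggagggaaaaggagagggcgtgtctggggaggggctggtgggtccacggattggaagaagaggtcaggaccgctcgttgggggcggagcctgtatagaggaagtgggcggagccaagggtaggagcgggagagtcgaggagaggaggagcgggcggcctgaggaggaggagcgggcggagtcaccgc
Per3: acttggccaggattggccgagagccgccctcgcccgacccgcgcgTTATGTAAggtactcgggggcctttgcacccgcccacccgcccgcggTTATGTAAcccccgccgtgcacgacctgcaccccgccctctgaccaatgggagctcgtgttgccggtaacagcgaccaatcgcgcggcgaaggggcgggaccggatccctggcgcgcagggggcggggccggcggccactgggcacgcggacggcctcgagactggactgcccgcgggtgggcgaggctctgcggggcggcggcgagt
Dbp: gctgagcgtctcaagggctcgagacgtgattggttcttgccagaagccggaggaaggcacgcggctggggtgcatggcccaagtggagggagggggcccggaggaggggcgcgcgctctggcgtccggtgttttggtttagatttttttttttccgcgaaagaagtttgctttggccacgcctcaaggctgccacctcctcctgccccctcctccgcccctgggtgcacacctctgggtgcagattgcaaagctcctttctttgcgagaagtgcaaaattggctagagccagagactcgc

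Motifs were searched on both strands. The E-box, to which CLOCK and ARNTL bind, was taken as CACGTG. Its variant, the E′ box, was taken as CACGTT. That box reads AACGTG where it lies on the other strand. The D-box, bound by DBP, TEF and HLF, was taken as any of TTATGTAA, TTACGTAA and TTATGCAA. The ROR element, bound by the NR1D and ROR receptors, was taken as their usual extended recognition site, and the cAMP response element as TGACGTCA. No matches overlapped each other in these promoters. Positions are counted from the RefSeq start, with negative numbers for the bases before it, and no base is numbered 0. Cry1 held an E′ box at -79 to -74 and an E-box at -60 to -55. Nr1d1 held an E′ box at -28 to -23, and Per3 held D-boxes at -205 to -198 and at -158 to -151. Dbp and Nr1d2 held none of the motifs in this window. Among the promoters not printed, the first of Per1 held an E-box at -166 to -161 and a D-box at -24 to -17, that of Cry2 an E′ box at -166 to -161, and those of Tef an E-box at -127 to -122 and at -138 to -133. The second Per1 promoter and the 3 Clock promoters held none. In all, 4 of the 13 promoters held an E-box, against 7.15% of the 32851 promoters of the same length in the table. An E′ box was in 3 of the 13, against 4.68% of all promoters, and a D-box in 2 of the 13, against 1.78%. The ROR element was in 0 of the 13 and in 0.606% of all promoters, and the cAMP response element in 0 of the 13 and in 1.79%. A match is only a match of letters, and its absence applies to this window alone.

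**Figure D1:**
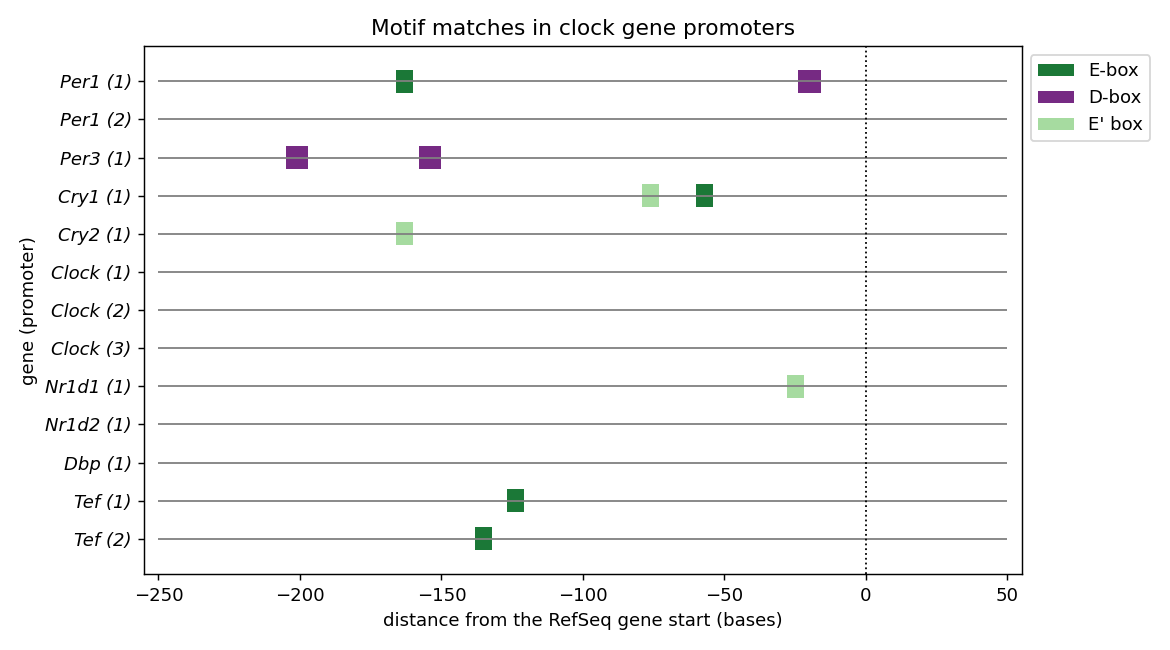
Matches in the 13 RefSeq promoters of 9 clock genes, with the distance from the annotated start in bases on the x axis and 1 row per promoter. Dark green blocks are E-boxes, light green blocks E′ boxes and purple blocks D-boxes; Clock, Nr1d2, Dbp and the second Per1 promoter have no block in the window.

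Values are normalized read counts, which are reads divided by 1 size factor per library. Recovered reads numbered from 7058681 to 10581042 per library, and the clock genes had between 66 reads (Dbp) and 1456 reads (Nr1d2) in a library. Thoc5 had 1780 and 1937 normalized counts in THOC5 cells in osteogenic medium, against 649.5 and 615.4 in GFP cells there. It had 2155 and 1406 in THOC5 cells in growth medium, against 458.0 and 470.6 in GFP cells there. All 5 smooth muscle markers (Acta2, Tagln, Myh11, Cnn1, Myocd) were read in every library. Their summed level was 22014 to 24043 in THOC5 osteogenic libraries, 10399 to 12205 in GFP osteogenic libraries, 27468 to 27704 in THOC5 growth libraries and 21548 to 25327 in GFP growth libraries. The 5 adventitial fibroblast markers, led by Dcn and Pdgfra, summed to 15186 to 16458 in THOC5 osteogenic, 4703 to 6564 in GFP osteogenic, 18567 to 19316 in THOC5 growth and 14674 to 17058 in GFP growth libraries. Most of that sum was Dcn, while Pi16 stayed between 0 and 3.82 and Dpt between 0 and 2.33 normalized counts in all libraries. The macrophage and leukocyte list, nearly all of it Csf1r and Cd68, summed to 189.0 to 204.6 in THOC5 osteogenic, 312.2 to 327.4 in GFP osteogenic, 188.1 to 209.5 in THOC5 growth and 258.7 to 267.2 in GFP growth libraries. Its other members Ptprc, Adgre1 and Itgam stayed between 0 and 1.88 normalized counts in all libraries. Endothelial markers summed to at most 120.7 and Schwann cell markers to at most 33.2 in a library, and of the adipocyte list only Fabp4 was read.

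Per kilobase of merged exon, the level averaged over all libraries was highest for the nuclear receptors, with 179.5 normalized counts per kilobase for Nr1d1 and 160.9 for Nr1d2. Tef followed with 123.8. Per1 (71.1), Cry2 (65.3) and Clock (59.7) came next on the same scale, then Cry1 (46.9), Per2 (40.5), Dbp (39.2) and Per3 (21.5). The genes also differed in how far they varied. Nr1d1 was 3.27-fold higher in its highest library than in its lowest, Dbp 2.70-fold, Per3 2.30-fold, Nr1d2 2.21-fold, Cry1 2.06-fold and Per2 1.86-fold. Clock (1.43-fold), Per1 (1.37-fold), Cry2 (1.19-fold) and Tef (1.19-fold) varied less. GFP cells in osteogenic medium held the highest library for Nr1d1, Nr1d2, Cry1 and Clock, and the lowest for Dbp, Per2, Per3 and Per1.

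**Figure D2:**
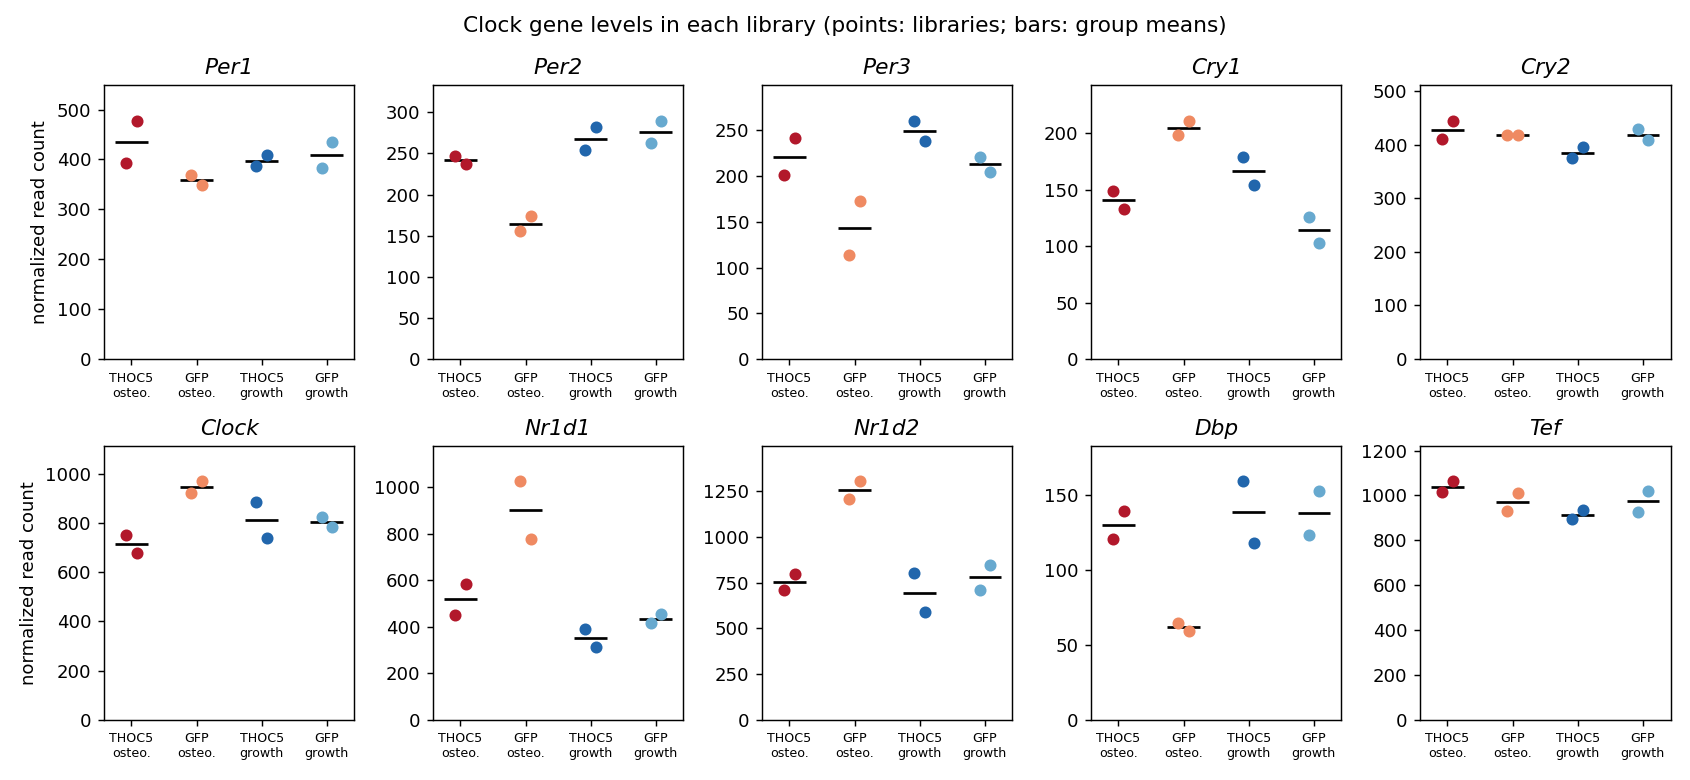
Normalized read count (y axis, from 0) of each clock gene in every library, in 4 groups of 2 along the x axis; points are libraries and bars are group means. In Dbp the GFP osteogenic points, at 64.9 and 59.0, lie below all others, and in Nr1d2 the GFP osteogenic points, at 1206 and 1302, lie above all others.

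In GFP cells, osteogenic medium went with lower levels of Dbp, Per2 and Per3 and with higher levels of Nr1d1, Nr1d2 and Cry1. By limma over all 22575 genes tested, 6 of the 10 clock genes passed an adjusted p of 0.05, while 20.8% of all genes passed. Of the clock genes 3 were higher and 3 lower, and of all genes 10.3% were higher and 10.6% lower. Shares of all genes, here and below, cover genes of every level. Of the 22575, 10655 averaged at least 50 normalized counts, as all 10 clock genes did. Shares among genes of like level were not computed. Those that fell were 1.52-fold to 2.20-fold lower and those that rose 1.61-fold to 2.05-fold higher, and Clock, Per1, Cry2 and Tef did not pass. edgeR and DESeq2 on the recovered reads each called 6 of the 10 as well, against 4840 and 3836 of the 22575 genes. The authors' deposited table also called 6, but it rests on the same 8 libraries and is not separate support. The groups did not overlap for 8 of the 10 genes, 4 higher and 4 lower, against 56.6% of all genes, 27.7% higher and 28.9% lower. The median size of the log2 change was 0.65 over the clock genes and 0.39 over all genes.

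Dbp (chr7:45705088-45710203, plus strand), a PAR bZIP factor that transmits the rhythm to output genes, showed the largest fall of the set. It had 64.9 and 59.0 normalized counts in GFP cells in osteogenic medium, against 123.5 and 152.9 in GFP cells in growth medium. Both osteogenic libraries were below both growth libraries, by 2.20-fold, a log2 change of -1.14 ± 0.18 (SE, n = 2 each; limma adjusted p = 0.00116). Per2 (chr1:91415982-91459324, minus strand), a repressor of CLOCK and ARNTL, had 155.7 and 173.5 in the osteogenic libraries, against 262.2 and 289.8 in the growth libraries. The ranges were again apart, with a log2 change of -0.74 ± 0.12 (limma adjusted p = 0.00103). Per3 (chr4:151003652-151044665, minus strand), the Per paralog that the core loop can run without, had 113.3 and 172.6 in osteogenic medium, against 221.4 and 204.7 in growth medium. Its libraries did not overlap either, but its osteogenic replicates differed by 1.52-fold, and the log2 change was -0.60 ± 0.18 (limma adjusted p = 0.0342). The Per3 call ended when any library other than GFP osteogenic replicate 2 was left out, with adjusted p between 0.0538 and 0.277, and the change was -0.30 without GFP osteogenic replicate 1. It also ended with library totals as the scaling, with no filter on low values, and with only the 4 libraries compared (adjusted p = 0.0801, 0.0884 and 0.105 in that order).

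Nr1d1 (chr11:98767932-98775333, minus strand) encodes REV-ERB alpha, the main repressor of Arntl. It had 1026 and 779.9 normalized counts in GFP cells in osteogenic medium, against 417.2 and 453.3 in GFP cells in growth medium. Both osteogenic libraries stood above both growth libraries, by 2.05-fold (log2 change 1.04 ± 0.16, limma adjusted p = 0.000937). Its paralog Nr1d2 (chr14:18204054-18239127, minus strand), REV-ERB beta, moved the same way, with 1206 and 1302 in osteogenic medium, against 709.7 and 848.1 in growth medium. That was 1.61-fold higher with no overlap (log2 change 0.69 ± 0.14, limma adjusted p = 0.00467). Cry1 (chr10:85131700-85185064, minus strand), the cryptochrome that closes the negative limb together with the PER proteins, had 198.1 and 211.1 in osteogenic medium, against 125.9 and 102.4 in growth medium. It was 1.79-fold higher, with groups apart and a log2 change of 0.84 ± 0.15 (limma adjusted p = 0.00191). Dbp, Per2, Nr1d1, Nr1d2 and Cry1 kept direction and call in all 15 alternatives tried.

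Clock (chr5:76209868-76304792, minus strand), the activator of the loop, had 922.0 and 969.6 in GFP cells in osteogenic medium, against 825.1 and 785.6 in growth medium. The libraries did not overlap, yet the log2 change of 0.23 ± 0.10 did not pass (limma adjusted p = 0.140). With library totals as the scaling, which moved the median of all genes by 0.13 in this comparison, it was 0.38 (adjusted p = 0.0221). Per1 (chr11:69095217-69109960, plus strand), which responds quickly to resetting stimuli, had 368.4 and 349.7 in osteogenic medium, against 382.2 and 436.0 in growth medium. Its libraries were lower without overlap, and the log2 change of -0.19 ± 0.12 did not pass (limma adjusted p = 0.310). Cry2 (chr2:92403646-92434043, minus strand), the second cryptochrome, had 418.6 and 417.7 in osteogenic medium, against 430.0 and 408.1 in growth medium, and its 95% interval of the log2 change ran from -0.21 to 0.20. Tef (chr15:81802421-81826863, plus strand), a PAR bZIP factor like Dbp, had 930.6 and 1010 in osteogenic medium, against 927.6 and 1020 in growth medium, with an interval from -0.20 to 0.19. The groups overlapped for both genes.

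Smooth muscle and fibroblast marker levels moved in this comparison too. 4 of the 5 smooth muscle markers and 3 of the 5 fibroblast markers fell, 1 of the 3 macrophage and leukocyte markers that could be tested rose, 1 of the 4 endothelial markers tested fell, and their part in the clock gene values was not tested. Over all genes, 10.3% were called higher and 10.6% lower in this comparison. In bulk libraries, fewer cells of a type and less RNA per cell cannot be told apart.

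In THOC5 cells, no clock gene passed between osteogenic and growth medium. limma, edgeR and DESeq2 each called 0 of the 10, as did the authors' deposited table, while limma called 0.54% of all genes, 0.532% higher and 0.00886% lower. The share of all genes at an unadjusted p under 0.05 was not computed. Among the clock genes the count there was 1, which was Nr1d1. It had 452.5 and 585.7 normalized counts in THOC5 cells in osteogenic medium, against 390.0 and 313.2 in THOC5 cells in growth medium. The libraries did not overlap and the log2 change was 0.56 ± 0.16, with a 95% interval from 0.21 to 0.91 (unadjusted p = 0.00488, limma adjusted p = 0.457). For the other genes called in GFP cells the log2 changes in THOC5 cells lay between -0.23 (Cry1) and 0.13 (Nr1d2). Dbp had 120.9 and 139.9 in osteogenic medium, against 159.3 and 118.4 in growth medium, with overlapping groups and an interval from -0.48 to 0.32. Per2 had 246.3 and 236.5 in osteogenic medium, against 253.9 and 281.7 in growth medium. Per3 had 200.8 and 241.2 in osteogenic medium, against 260.7 and 238.8 in growth medium. Per2 was lower without overlap, and Per3 overlapped. Cry1 had 149.0 and 133.3 in osteogenic medium, against 178.6 and 153.8 in growth medium, and Nr1d2 had 710.6 and 795.1 in osteogenic medium, against 800.3 and 590.2 in growth medium. Cry1 was thus lower without overlap, with an interval of the log2 change from -0.55 to 0.09, and Nr1d2 overlapped. In all, 5 of the 10 genes did not overlap, 3 higher and 2 lower, against 34.8% of all genes, 15.1% higher and 19.7% lower. Intervals of this width do not show that the clock genes were alike in both media.

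THOC5 and GFP cells in growth medium differed in none of the clock genes by the test. limma, edgeR, DESeq2 and the authors' deposited table each called 0 of the 10, and limma called 0.00443% of all genes, which was Thoc5 itself. At an unadjusted p under 0.05 the count was 1, which was Cry1, and the share of all genes there was not computed. Cry1 had 178.6 and 153.8 normalized counts in THOC5 cells, against 125.9 and 102.4 in GFP cells. Both THOC5 libraries were above both GFP libraries, with a log2 change of 0.54 ± 0.15 (95% interval 0.22 to 0.86, unadjusted p = 0.00330, limma adjusted p = 0.906). Groups stood apart for 4 of the 10 genes, 2 higher and 2 lower, against 31.3% of all genes, 14.7% higher and 16.5% lower. Nr1d1 was among those lower, with 390.0 and 313.2 in THOC5 cells, against 417.2 and 453.3 in GFP cells (log2 change -0.31 ± 0.16, limma adjusted p = 0.918). For the rest the log2 changes ran from -0.17 for Nr1d2 to 0.23 for Per3.

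In osteogenic medium, THOC5 cells had higher Dbp, Per3 and Per2 than GFP cells, and lower Nr1d1, Nr1d2, Cry1 and Clock. limma called 7 of the 10, 3 higher and 4 lower, against 22% of all genes, 11.3% higher and 10.7% lower. Calls also numbered 7 by edgeR, DESeq2 and the authors' deposited table, all from the same libraries. The groups were apart for 9 of the 10, 5 higher and 4 lower, against 59.4% of all genes, 30.8% higher and 28.6% lower. The median size of the log2 change was 0.54 against 0.41 over all genes. This comparison and that of the media in GFP cells share the 2 GFP osteogenic libraries, so a gene's values in both are not independent.

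Dbp had 120.9 and 139.9 normalized counts in THOC5 cells in osteogenic medium, against 64.9 and 59.0 in GFP cells there. It was 2.08-fold higher with groups apart (log2 change 1.06 ± 0.18, limma adjusted p = 0.00165), and its call alone among the 7 held in all 15 alternatives. Per2 had 246.3 and 236.5 in THOC5 cells, against 155.7 and 173.5 in GFP cells, a log2 change of 0.55 ± 0.12 (limma adjusted p = 0.00557). Per3 had 200.8 and 241.2 in THOC5 cells, against 113.3 and 172.6 in GFP cells, a log2 change of 0.65 ± 0.18 (limma adjusted p = 0.0229). THOC5 libraries were above GFP libraries in both Per genes.

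Nr1d1 had 452.5 and 585.7 in THOC5 cells in osteogenic medium, against 1026 and 779.9 in GFP cells there. Every THOC5 library was below every GFP library, by 1.74-fold on average (log2 change -0.80 ± 0.16, limma adjusted p = 0.00427). Nr1d2 had 710.6 and 795.1 in THOC5 cells, against 1206 and 1302 in GFP cells, which was 1.67-fold lower (log2 change -0.74 ± 0.14, limma adjusted p = 0.00304). Both nuclear receptor genes were therefore lower without overlap. Cry1 had 149.0 and 133.3 in THOC5 cells, against 198.1 and 211.1 in GFP cells (log2 change -0.53 ± 0.15, limma adjusted p = 0.0218). Clock had 750.6 and 678.7 in THOC5 cells, against 922.0 and 969.6 in GFP cells (log2 change -0.41 ± 0.10, limma adjusted p = 0.0145). Neither gene's groups overlapped.

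Per1 had 392.6 and 477.8 in THOC5 cells in osteogenic medium, against 368.4 and 349.7 in GFP cells, higher without overlap but not past the test (log2 change 0.27 ± 0.12, limma adjusted p = 0.130). Tef had 1017 and 1063 in THOC5 cells, against 930.6 and 1010 in GFP cells, with an interval of the log2 change from -0.09 to 0.29. Cry2 had 410.7 and 444.9 in THOC5 cells, against 418.6 and 417.7 in GFP cells, with an interval from -0.17 to 0.24. Tef was higher by a narrow gap and Cry2 overlapped. With an osteogenic library left out, fewer of the 10 were called. Leaving out libraries also lowered the calls over all genes, and whether the clock genes lost more was not tested. The Per3 change was 0.35 without GFP osteogenic replicate 1. 4 of the 5 smooth muscle markers and 3 of the 5 fibroblast markers were also higher in THOC5 cells here, 1 of 3 macrophage and leukocyte markers was lower, 1 of 4 endothelial markers was higher and 1 lower, and their part in the clock gene values was not tested. Over all genes, 11.3% were called higher and 10.7% lower in this comparison.

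**Figure D3:**
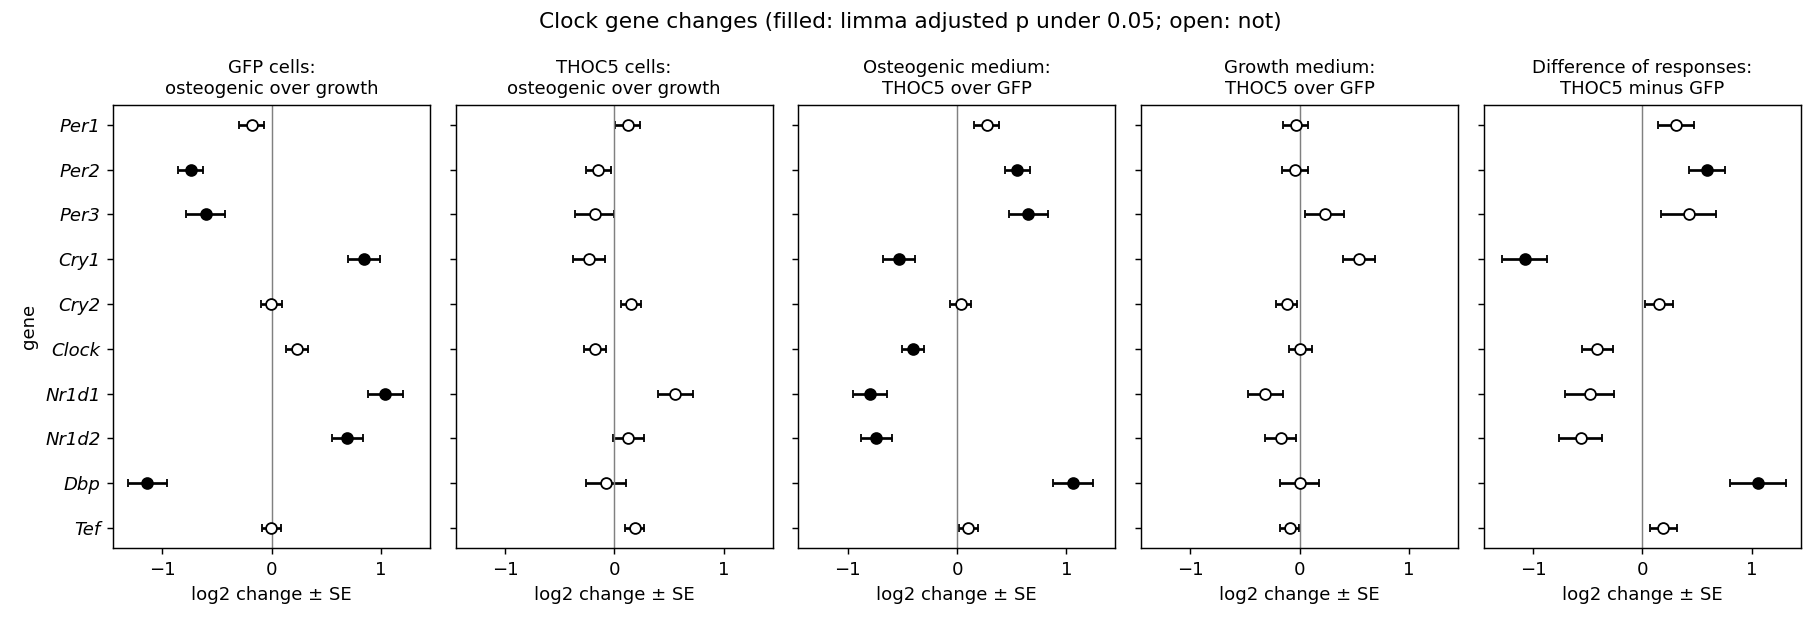
Log2 change ± SE of each clock gene on the x axis, in 1 panel per comparison; filled points passed a limma adjusted p of 0.05 and open points did not. There are 6 filled points for osteogenic against growth medium in GFP cells, 0 in THOC5 cells, 7 for THOC5 against GFP in osteogenic medium, 0 in growth medium and 3 for the difference of responses; Cry2 and Tef lie near 0 in the panels of GFP cells and of osteogenic medium.

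Whether the osteogenic response differed between THOC5 and GFP cells was tested as an interaction, which is the log2 change in THOC5 cells minus that in GFP cells. limma called 3 of the 10 clock genes, 2 higher and 1 lower, against 9.22% of all genes, 5.3% higher and 3.92% lower. edgeR called 4 and DESeq2 3, against 2458 and 1939 of all genes tested. Cry1 and Dbp were called by all 3 tools, Per2 by limma and edgeR, and Nr1d2 by edgeR and DESeq2. Cry1 had a log2 response of -0.23 in THOC5 cells and of 0.84 in GFP cells, a difference of -1.08 ± 0.21 (limma adjusted p = 0.00917). Its log2 change of THOC5 from GFP cells was 0.54 in growth medium, which had not passed, and -0.53 in osteogenic medium. Both media thus entered the difference. Of the 3 called, only Cry1 had values of opposite sign in the 2 kinds of cells, and its value in THOC5 cells had not passed. Dbp had -0.08 in THOC5 cells and -1.14 in GFP cells, a difference of 1.06 ± 0.26 (limma adjusted p = 0.0261). Per2 had -0.15 in THOC5 cells and -0.74 in GFP cells, a difference of 0.59 ± 0.16 (limma adjusted p = 0.0448). The Cry1 call was lost in 1 of 14 alternatives, without THOC5 osteogenic replicate 2 (adjusted p = 0.0859). Dbp lost its call in 7 of 14, in 6 of them through a left-out library and in 1 through testing with no filter, and Per2 in 10 of 14. With most single libraries left out, fewer of the 10 were called. Calls over all genes fell with every library left out, and whether the losses were larger for the clock genes was not tested.

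For the nuclear receptors the responses were not shown to differ. Nr1d1 had 0.56 in THOC5 cells and 1.04 in GFP cells, a difference of -0.48 ± 0.22 (limma adjusted p = 0.226). Nr1d2 had 0.13 in THOC5 cells and 0.69 in GFP cells, a difference of -0.56 ± 0.20 (limma adjusted p = 0.105), which edgeR and DESeq2 called (adjusted p = 0.0417 and 0.0440). Clock had -0.18 in THOC5 cells and 0.23 in GFP cells, a difference of -0.41 ± 0.14 (limma adjusted p = 0.104). With library totals it passed (adjusted p = 0.0460). Per3 (0.42 ± 0.25), Per1 (0.31 ± 0.16), Tef (0.19 ± 0.12) and Cry2 (0.15 ± 0.13) had differences that did not pass.

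Other genes of the clock and of its inputs and outputs were read from 6 lists with 48 measured genes reported here. In GFP cells, 23 of the 48 passed between osteogenic and growth medium, 16 higher and 7 lower, against 20.8% of all genes, 10.3% higher and 10.6% lower. Between THOC5 and GFP cells in osteogenic medium, 25 passed, 9 higher and 16 lower, against 22% of all genes, 11.3% higher and 10.7% lower. The interaction was called for 12 of the 48, 5 higher and 7 lower, against 9.22% of all genes, 5.3% higher and 3.92% lower. Between media in THOC5 cells and between THOC5 and GFP cells in growth medium, limma, edgeR and DESeq2 called 0 of the 48. In that order, 6 and 3 had an unadjusted limma p under 0.05. The share of all genes at that unadjusted threshold was not computed, so these counts are not a result about the lists.

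Of the 5 other activators and nuclear receptors reported, 2 rose and 1 fell in GFP cells in osteogenic medium, where 20.8% of all genes passed. In THOC5 against GFP cells there, 1 was higher and 2 were lower (median log2 change -0.12, against 0 over all genes), where 22% of all genes passed. Arntl, the partner of CLOCK and a target of NR1D1, had 247.4 and 231.7 normalized counts in osteogenic medium, against 166.6 and 102.4 in growth medium. It was higher without overlap (log2 change 0.87 ± 0.21, limma adjusted p = 0.0112), so Arntl and the gene of its repressor Nr1d1 were both higher there. Npas2, a paralog of Clock that can stand in for it, had 21.6 and 17.9 in osteogenic medium, against 43.1 and 57.2 in growth medium (log2 change -1.29 ± 0.24, limma adjusted p = 0.00316). It fell without overlap, while Rorb, a nuclear receptor that activates through ROR elements, was higher (0.79 ± 0.20, limma adjusted p = 0.0172). In osteogenic medium the THOC5 libraries had 148.1 and 143.6 for Arntl and 37.3 and 42.2 for Npas2. Against GFP cells the log2 changes were -0.71 ± 0.21 for Arntl, 0.98 ± 0.24 for Npas2 and -0.87 ± 0.20 for Rorb, and limma called all 3 (highest adjusted p = 0.0286, for Arntl). The Arntl call between media ended without GFP growth replicate 2, where the log2 change was 0.52, when the fit held only the 4 libraries of that comparison, and without either GFP osteogenic replicate (limma adjusted p from 0.0513 to 0.108). That between THOC5 and GFP cells ended without any 1 of the 4 osteogenic libraries and with no filter on low values (limma adjusted p from 0.0823 to 0.179). The interaction was not called for Arntl (-0.75 ± 0.29, limma adjusted p = 0.144) or Npas2 (0.84 ± 0.34, limma adjusted p = 0.163). Without GFP growth replicate 1 that of Arntl was -1.09 and passed (limma adjusted p = 0.0213).

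Of the 7 other repressors and modulators, 2 rose and 1 fell in GFP cells in osteogenic medium (median -0.11), against 10.3% of all genes higher and 10.6% lower. Tipin, which encodes the partner of TIMELESS at replication forks, had 213.6 and 218.2 normalized counts in osteogenic medium, against 123.5 and 125.0 in growth medium (log2 change 0.79 ± 0.13, limma adjusted p = 0.00126). Ciart, a repressor of CLOCK and ARNTL also called CHRONO, had 51.9 and 43.8 in osteogenic medium, against 19.8 and 30.6 in growth medium (0.93 ± 0.29, limma adjusted p = 0.0415), a call lost in 10 of 15 alternatives. Nfil3, which opposes DBP and TEF at D-boxes, was lower (-0.51 ± 0.12, limma adjusted p = 0.0105). In osteogenic medium 1 of the list was higher and 2 were lower in THOC5 than in GFP cells, against 11.3% and 10.7% of all genes. Tipin was lower (-0.65 ± 0.13, limma adjusted p = 0.00362) and Nfil3 higher (0.46 ± 0.12, limma adjusted p = 0.0154). The third called gene, Hlf, had at most 8 reads in a library. Its call (limma adjusted p = 0.0472) was lost in 11 of 14 alternatives.

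Of the 9 kinases and ubiquitin ligases acting on PER and CRY proteins that are reported, 4 rose in GFP cells in osteogenic medium (median 0.27), against 10.3% of all genes. In THOC5 cells there, 4 were lower than in GFP cells (median -0.23), against 10.7% of all genes. Csnk1e, a casein kinase that phosphorylates PER, had 1415 and 1174 normalized counts in GFP cells in osteogenic medium, against 1006 and 872.0 in growth medium (log2 change 0.46 ± 0.10, limma adjusted p = 0.00901). Fbxw11, a ubiquitin ligase subunit acting on PER, had 1815 and 1685 in osteogenic medium, against 1320 and 1203 in growth medium (0.47 ± 0.09, limma adjusted p = 0.00246). Both rose without overlap. THOC5 cells in osteogenic medium had 897.8 and 888.0 for Csnk1e and 1210 and 1211 for Fbxw11, below the GFP libraries (log2 changes -0.53 ± 0.10 and -0.53 ± 0.09, limma adjusted p = 0.00387 and 0.00112).

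Of the 9 output genes, 3 rose and 1 fell in GFP cells in osteogenic medium (median 0.24), where 20.8% of all genes passed. In THOC5 cells there, 2 were higher and 2 lower than in GFP cells (median -0.12), where 22% of all genes passed. Tsc22d3, which is also glucocorticoid-induced, rose by 0.83 ± 0.15 and Pdk4, a brake on glucose oxidation, by 0.59 ± 0.09 on the log2 scale (limma adjusted p = 0.00281 and 0.00112), and Tspan4 fell by 0.70 (limma adjusted p = 0.000485). The corresponding differences of THOC5 from GFP cells in osteogenic medium were -0.79 ± 0.15, -0.68 ± 0.09 and 0.76 ± 0.10. For all 3 the interaction was called (-0.85, -0.56 and 0.63; limma adjusted p = 0.0326, 0.0217 and 0.0172).

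Genes induced by glucocorticoids and by cAMP or calcium, which are signals that can reset the clock, moved in both directions. Of the 9 glucocorticoid-induced genes that could be tested, 3 rose and 3 fell in GFP cells in osteogenic medium (median 0.05), where 20.8% of all genes passed. In THOC5 cells there, 3 were higher and 3 lower than in GFP cells (median 0.17), where 22% of all genes passed. Cebpd, a bZIP factor, fell in GFP cells in osteogenic medium (-1.45 ± 0.12, limma adjusted p = 2.15e-05), and so did Errfi1, an inhibitor of EGF receptor signalling (-0.49 ± 0.08, limma adjusted p = 0.00156). Dusp1, a phosphatase of MAP kinases, rose (0.92 ± 0.11, limma adjusted p = 0.000147), and so did Fkbp5, a chaperone partner of the receptor (0.73 ± 0.13, limma adjusted p = 0.00250). Of the 9 cAMP or calcium induced genes, 2 rose and 1 fell in GFP cells in osteogenic medium (median 0.23), and 2 were higher and 3 lower in THOC5 than in GFP cells there (median -0.30), against the same shares of all genes. Fosb, an AP-1 subunit, had 101.2 and 83.2 normalized counts in GFP cells in osteogenic medium, against 18.6 and 13.3 in growth medium (log2 change 2.47 ± 0.30, limma adjusted p = 0.000230). Its levels in THOC5 cells in osteogenic medium were 23.6 and 17.8 (-2.11 ± 0.30 against GFP cells, limma adjusted p = 0.000565). Per1, which both signals are known to induce, did not pass in either comparison. Whether these signals acted on the cells was not tested.

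Among these further genes, the calls of Fbxw11, Tspan4, Pdk4, Cebpd, Dusp1, Errfi1, Fkbp5 and Fosb held in all 15 alternatives in both comparisons, and those of Npas2, Tipin and Tsc22d3 between media in GFP cells. Between THOC5 and GFP cells in osteogenic medium, the call ended without THOC5 osteogenic replicate 2 for Tipin, Csnk1e, Nfil3, Npas2 and Rorb. Without THOC5 osteogenic replicate 1 it ended for Tsc22d3, Npas2 and Rorb, without GFP osteogenic replicate 1 for Nfil3 and Rorb, and without GFP osteogenic replicate 2 for Npas2 and Rorb. Between media in GFP cells, it ended without GFP osteogenic replicate 1 for Rorb, Nfil3, Csnk1e and Ciart, and without GFP growth replicate 2 for Rorb and Csnk1e. Without GFP growth replicate 1 it ended for Nfil3 and Ciart, and without GFP osteogenic replicate 2 for Rorb and Ciart. Of the interaction calls named, Pdk4 lost its call in 6 of 14 alternatives, and Tspan4 and Tsc22d3 in 7 each, without THOC5 osteogenic replicate 2 in all 3. Interaction calls also lay outside the output genes. Glucocorticoid-induced genes had 2 higher and 2 lower, and cAMP or calcium induced genes 2 higher and 1 lower. Repressors and modulators had 1 lower, as did kinases and ubiquitin ligases.

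**Figure D4:**
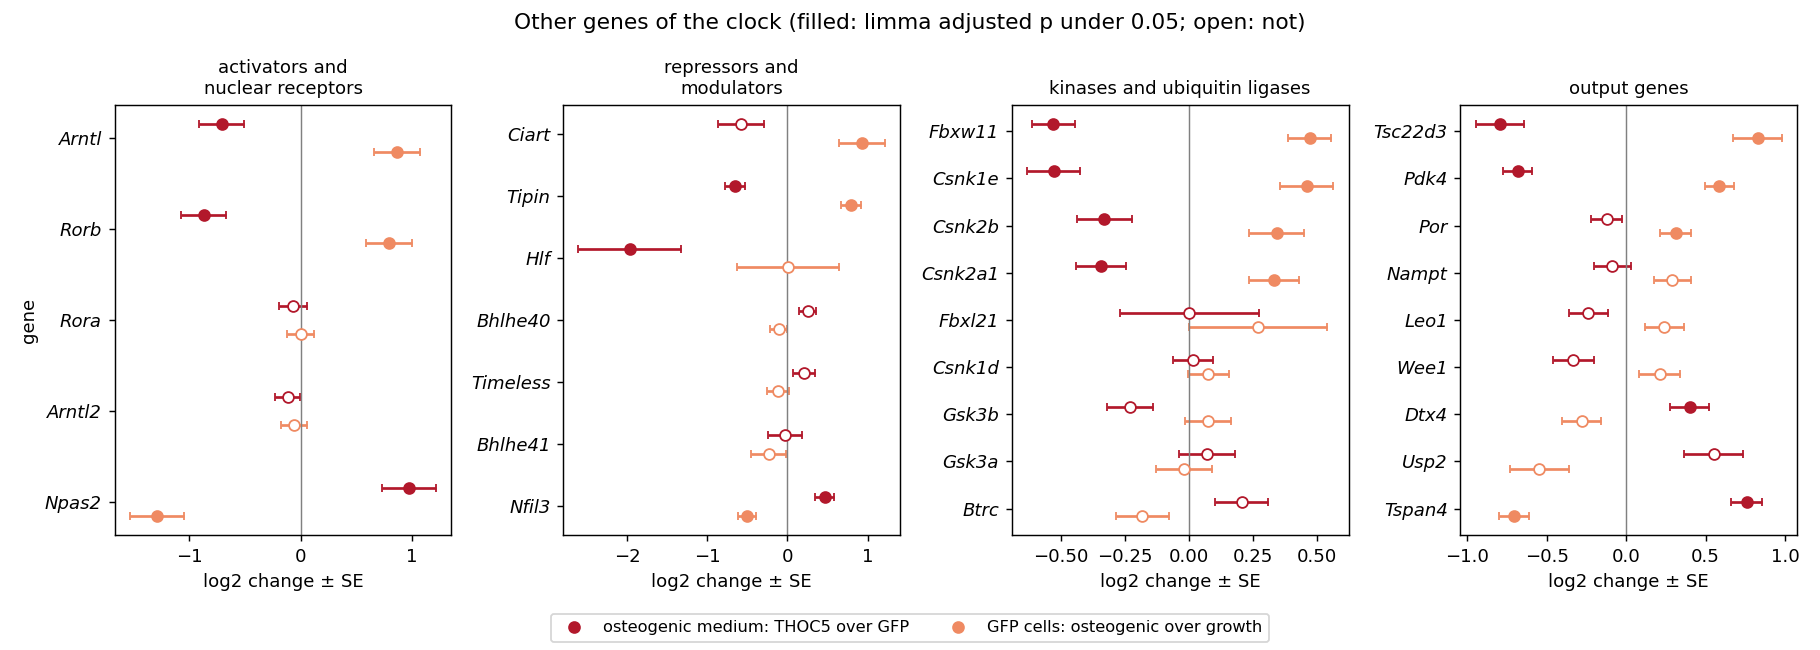
Log2 change ± SE (x axis) of the other clock genes in 4 lists, with THOC5 over GFP in osteogenic medium in dark red above and osteogenic over growth medium in GFP cells in orange below; filled points passed a limma adjusted p of 0.05. Arntl lies at -0.71 and 0.87, and Npas2 at 0.98 and -1.29; the comparisons share the GFP osteogenic libraries.

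The library kit named in the labels does not mark strand, so reads from genes that overlap on opposite strands cannot be told apart. In GENCODE M21 on GRCm38, exons of Nr1d1 overlapped those of Thra, a thyroid hormone receptor gene, over 263 bases or 8.55% of its exon length. Exons of Dbp overlapped those of Sphk2, a sphingosine kinase gene, over 539 bases or 18.0%. Cry2 (4.67%) and Tef (2.45%) overlapped noncoding genes with few reads. In GFP cells Thra fell in osteogenic medium, the opposite of Nr1d1, with 606.3 to 617.2 normalized counts, against 1090 to 1161 in growth medium (log2 change -0.88 ± 0.08, limma adjusted p = 3.07e-05). Sphk2 had 198.6 to 207.6 in osteogenic medium, against 199.4 to 210.9 in growth medium, while Dbp fell (Sphk2 log2 change -0.01 ± 0.17, limma adjusted p = 0.967).

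The genes most like Per1, Nr1d1 and Dbp were ranked by Pearson's r of the log2 level over the 8 libraries among 10318 genes, as a description of libraries that share their groups. For Nr1d1 they were Mocos (r = 0.988), Aqr (0.986) and Havcr2 (0.983). Mocos averaged 206.5 normalized counts in THOC5 osteogenic, 265.4 in GFP osteogenic, 166.6 in THOC5 growth and 180.2 in GFP growth libraries. For Dbp they were Fggy (0.988), Birc3 (0.988) and Klf2 (0.986). Birc3 averaged 202.5 normalized counts in THOC5 osteogenic, 99.0 in GFP osteogenic, 214.3 in THOC5 growth and 209.6 in GFP growth libraries, so the GFP osteogenic libraries stood low, as for Dbp. For Per1 they were Lmbr1l (0.949), Unkl (0.938) and Rhog (0.929).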

How the data were processed

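The 8 RNA-seq libraries form 4 groups of 2, taken from the sample titles. The deposited table holds a signal per gene, which is the read count after the authors divided it by a library's size factor; multiplying by that factor gave whole reads for 100% of values (largest distance from a whole number 1.34e-09). Per the file headers, 4 comparisons carry the authors' own log2 fold changes and adjusted p-values. The submitters' processing notes name the mm10 build and FastQC, Bowtie2, MACS2 and SAMtools, with no roles; how reads were counted is not given in the sources used here.

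limma 3.58.1 (R 4.3.3) with its trend option was fitted to log2(normalized count + 1) of 22575 genes, those that reached 1 in 2 or more libraries, all 10 clock genes included. A single fit over all 8 libraries had 4 group means, no block and 4 residual degrees of freedom. Benjamini-Hochberg adjustment ran over all genes per contrast, and 0.05 was the threshold. Fold changes are on that log2 scale, which understates low genes, and intervals are 95%. A count of 0 allows up to 3 reads, or 2.59 to 3.99 normalized counts, covering counting error only. Alternatives were a pseudocount of 5, no filter, library totals, the replicate number as a block, edgeR 4.0.16 (quasi-likelihood, TMM) and DESeq2 1.42.0 on the recovered reads, only the 4 libraries compared, and leaving out each library. The clock genes, the other lists and the tests were chosen with earlier results of these data known. All clock genes are named; of other lists, up to 4 genes with the smallest p per comparison, plus Arntl and Npas2. Some genes of these lists are not reported here and are left out of the lists' counts. Likeness was ranked among genes with a mean of at least 50 normalized counts and no predicted name. Coordinates are from GENCODE M21 on GRCm38, and promoters from RefSeq.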

Additional observations from a re-analysis of the deposited data

Results flagged for a closer look

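For 3 clock genes the response to osteogenic medium differed between THOC5 and GFP cells by the interaction term of limma, which is the log2 response in THOC5 cells minus that in GFP cells. These were 3 of 10, 2 higher and 1 lower, against 9.22% of all genes, 5.3% higher and 3.92% lower. The difference was -1.08 for Cry1, 1.06 for Dbp and 0.59 for Per2 (limma adjusted p = 0.00917, 0.0261 and 0.0448 in that order), with 2 libraries in each of the 4 groups. Of 14 alternatives, the call was kept in 13 for Cry1, in 7 for Dbp and in 4 for Per2. Nr1d2 was called by edgeR and DESeq2 but not by limma. The Cry1 difference includes a log2 change of 0.54 between THOC5 and GFP cells in growth medium, which had not passed. Marker levels of smooth muscle and fibroblasts also differed in the interaction, with 3 of 5 higher in each list, as did 1 of 4 endothelial markers, higher, and 1 of 3 macrophage and leukocyte markers, lower, and their part in these differences was not tested.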

How the results depend on the processing

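Over 50 pairs of clock gene and contrast and 740 alternative values, 662 kept direction and side of the threshold, 46 lost the call, 6 gained one and 26 changed sign; 0 of the sign changes were among the 16 called pairs. With no filter on low values, 1 clock gene was called in the interaction. Leaving out libraries gave 0 to 3 calls in the interaction and 2 to 7 for THOC5 against GFP cells in osteogenic medium; the cause was not tested.

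Every change of sign was in a value that was not called. With library totals, which moved the median of all genes by 0.127 between media in GFP cells, by -0.163 between THOC5 and GFP cells in osteogenic medium and by -0.100 in the interaction, Cry2 was at 0.142 and Tef at 0.141 between media in GFP cells, and at -0.144 and -0.076 for THOC5 against GFP cells in osteogenic medium, and Clock at -0.057 in growth medium. With edgeR, Cry2 and Tef were both at 0.011 between media in GFP cells and Dbp at 0.017 for THOC5 against GFP cells in growth medium, where DESeq2 gave 0.0095. With libraries left out, the range between media in GFP cells was -0.040 to 0.035 for Cry2 and -0.073 to 0.063 for Tef. Between media in THOC5 cells it was -0.291 to 0.134 for Dbp, -0.090 to 0.348 for Nr1d2 and -0.019 to 0.264 for Per1. For THOC5 against GFP cells in growth medium it was -0.121 to 0.135 for Clock, -0.213 to 0.212 for Dbp, -0.394 to 0.045 for Nr1d2, -0.132 to 0.057 for Per1 and -0.118 to 0.031 for Per2, and in osteogenic medium -0.026 to 0.089 for Cry2.

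Over the whole table, the interaction had 2082 calls, 1122 with no filter and at least 372 with a library left out. The media differed in 4698 genes in GFP cells (at least 2250 with a library left out) and in 122 in THOC5 cells (37 with no filter, at least 14). THOC5 and GFP cells differed in 4963 genes in osteogenic medium (at least 2014) and in 1 in growth medium, which was 0 with no filter, with only the 4 libraries compared or without any 1 osteogenic library. Same-numbered libraries were not shown to be pairs over all groups. Over 10655 genes, their deviations from group means correlated at 0.402 between GFP and THOC5 cells in growth medium. For the other pairs of groups the correlation was between -0.188 and 0.136. With the replicate block, the clock gene calls numbered 6, 0, 0, 7 and 3, as without it. That block is 1 offset common to all groups, so it cannot fit a replicate effect confined to growth medium, which was not tested. Depth limits Dbp and Cry1 most, with as few as 66 and 77 reads in a library.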
